A study of Mus musculus with 6 samples.

Results

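Complement is a cascade of plasma and cell-surface proteins, and 9 of its genes, C1qa, C1qb, C1qc, C1s, C4b, C3, Cfb, Serping1 and Cd55, were followed in Rnf40+/+ and Rnf40-/- mouse embryonic fibroblasts (MEFs). They were taken by gene symbol from a table of 29955 genes, in which all 9 were present with 1 row each, and all 9 had enough reads to be tested. RNA was sequenced from 3 Rnf40+/+ and 3 Rnf40-/- cultures of primary MEFs at passage 3. RNF40 is a ligase that attaches ubiquitin to histone H2B. The knockout was made in MEFs of embryos in which exons 3 and 4 of Rnf40 were flanked by loxP sites and CreERT2, a recombinase activated by tamoxifen, was expressed from the Rosa26 locus. Deletion was induced with 250 nM 4-hydroxytamoxifen (4-OHT) over 5 days, and a further 3 days of culture without it followed. Whether the Rnf40+/+ cells carried the same alleles or were given 4-OHT is not given in the sources used here, so deletion and drug cannot be told apart.

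The classical pathway starts when C1q, built from the chains of C1qa, C1qb and C1qc, binds its target and the attached proteases C1r and C1s cleave C4 and C2. The alternative pathway runs on C3 and factor B, the product of Cfb, and both pathways meet in the cleavage of C3. Host cells are spared through inhibitors such as the C1 inhibitor (Serping1), which blocks C1r and C1s, and decay-accelerating factor (Cd55), a membrane protein that breaks up the C3-cleaving enzymes. Most plasma complement comes from the liver and C1q mainly from macrophages, but fibroblasts are known to make several components.

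In Rnf40-/- MEFs C3, Cfb, C1s and Serping1 were higher and the 3 C1q genes were lower, whereas C4b and Cd55 did not pass the test. The largest rise was that of C3, whose mean was 6.62 times the Rnf40+/+ mean, and the means of C1qa, C1qc and C1qb were 23.8%, 27.2% and 35.2% of the Rnf40+/+ means. Without Rnf40+/+ replicate 3, whose C1q counts stood far above the others, these were 40.4%, 38.4% and 59.4%. Values are normalized counts, that is reads on a gene divided by 1 size factor per library. The genotypes were compared by limma after taking log2(normalized count + 1), and p values were adjusted by the Benjamini-Hochberg method over all 16378 genes tested. Of the 9 genes, 4 were called higher and 3 lower at an adjusted p under 0.05. In the same comparison 23.3% of all genes tested were called higher and 24.1% lower, so calls as such were common. The libraries of the 2 genotypes did not overlap for the same 7 genes, as for 27.8% of all genes in the upward and 28.7% in the downward direction. The median log2 fold change was 0.06 over the 9 genes and -0.0035 over all genes tested.

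**Figure D1:**
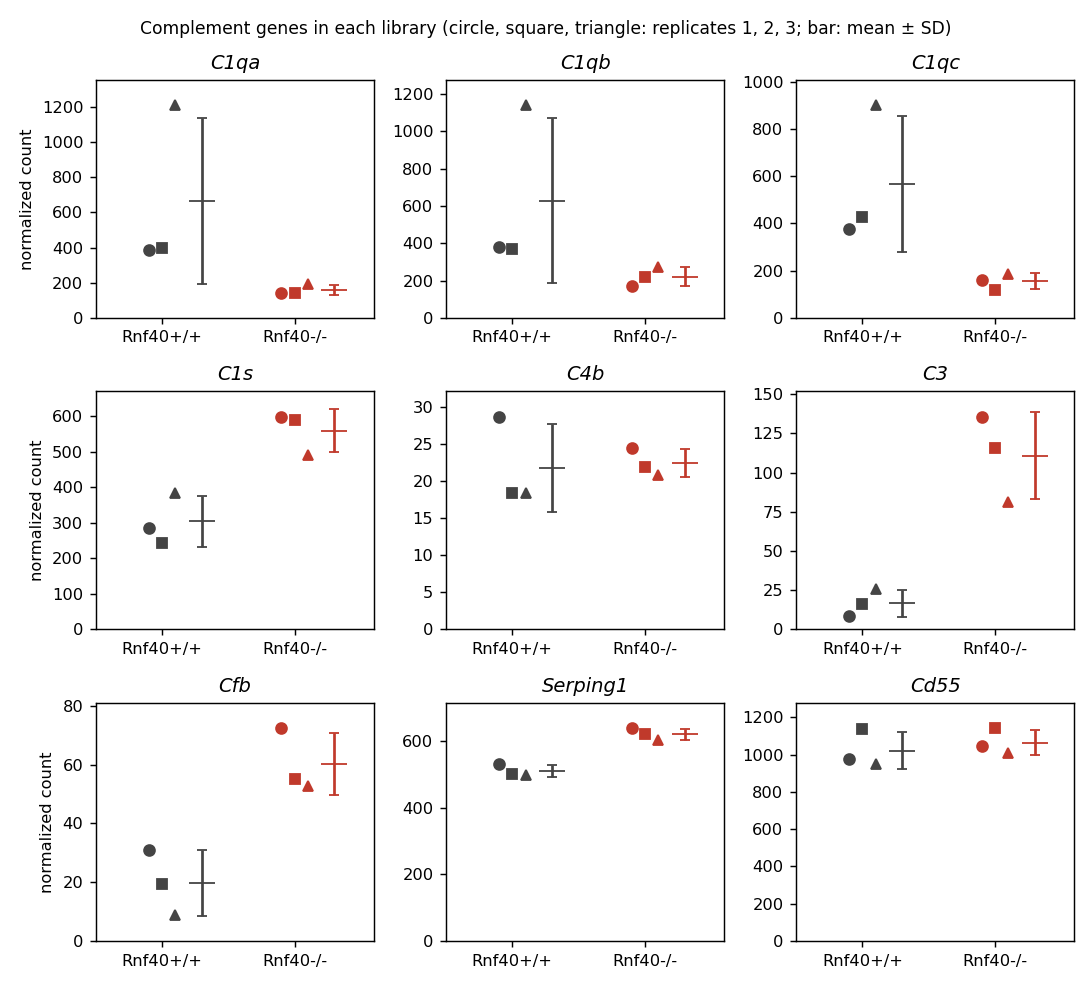
Normalized count (vertical axis, from 0) of each of the 9 genes in the 3 Rnf40+/+ (grey) and the 3 Rnf40-/- (red) libraries, with the mean and SD beside the points. Rnf40+/+ replicate 3 (triangle) stands far above the other Rnf40+/+ libraries for C1qa, C1qb and C1qc, and the genotypes overlap for C4b and Cd55.

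The targeted gene followed the labels. Rnf40 had 1278, 1195 and 1096 normalized counts in Rnf40+/+ and 439, 519 and 487 in Rnf40-/- libraries, a log2 fold change of -1.30 (standard error, SE, 0.09, limma adjusted p = 4.25e-07). The libraries held between 17053436 and 26344170 reads on genes, and 3 reads, taken as the limit of detection, had a value between 2.40 and 3.58. The fibroblast genes Col1a1, Col1a2, Vim and Fn1 were strongly expressed in every library. Of 10 fibroblast markers 8 were called lower in Rnf40-/- MEFs, beside 24.1% of all genes tested. The summed level of the 10 markers was between 669465 and 741504 normalized counts in Rnf40+/+ and between 400462 and 403413 in Rnf40-/- libraries. A pair of Rnf40+/+ libraries stood apart. Replicate 3 had the highest value among Rnf40+/+ libraries for 18 of 21 macrophage markers. Its difference was not limited to these markers. Over all genes it differed more from replicates 1 and 2 (chi-square per gene 26.9 and 24.1) than these did from each other (7.87). Replicate 1 had 81.2 normalized counts of Ddx3y, a gene of the Y chromosome, against at most 7.14 in any other library. The C1q genes, for which replicate 3 decided the size of the difference, are given with and without it.

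The 9 genes lie at 6 places of the genome (build mm9). C1qb, C1qc and C1qa stand side by side on the minus strand of chromosome 4, at 136436044 to 136442102, 136445719 to 136448980 and 136451832 to 136454718, with gaps of 3616 and 2851 bases between them, and each has 3 exons in its longest coding transcript. On chromosome 17, C4b (34865325 to 34880827) and Cfb (34993319 to 34999463) are in the same region, in which Cfb is followed after 85 bases by C2, and C3 (57343397 to 57367559) is farther away. C1s spans 124480363 to 124586998 on chromosome 6, where some of its annotated transcripts run through Gm5077, Serping1 spans 84605544 to 84615601 on chromosome 2, and Cd55 spans 132335604 to 132359321 on chromosome 1. Promoter sequences of RefSeq (build GRCm38.p6) were found for 5 of the 9 genes. The 250 bases upstream of the start are shown for 4 of these 5, the pair of C1q genes and the pair of genes that changed in the opposite direction, so that they can be set side by side. All 4 genes lie on the minus strand, and the sequences read 5′ to 3′ along the gene at chr4:136886201-136886450 (C1qb), chr4:136892915-136893164 (C1qc), chr6:124542360-124542609 (C1s) and chr17:57228137-57228386 (C3). Capitals mark matches, on either strand, to 4 motifs: GAGGAA, a core bound by ETS factors such as PU.1 of macrophages; TTNNGNAA of C/EBP factors; TTCNNNGAA of STAT factors; and the interferon-stimulated response element (ISRE).
C1qb: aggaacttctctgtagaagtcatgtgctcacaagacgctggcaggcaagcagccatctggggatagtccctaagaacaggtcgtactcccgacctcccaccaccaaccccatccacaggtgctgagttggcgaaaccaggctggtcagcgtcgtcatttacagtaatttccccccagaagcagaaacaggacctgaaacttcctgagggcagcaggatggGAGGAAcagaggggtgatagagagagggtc
C1qc: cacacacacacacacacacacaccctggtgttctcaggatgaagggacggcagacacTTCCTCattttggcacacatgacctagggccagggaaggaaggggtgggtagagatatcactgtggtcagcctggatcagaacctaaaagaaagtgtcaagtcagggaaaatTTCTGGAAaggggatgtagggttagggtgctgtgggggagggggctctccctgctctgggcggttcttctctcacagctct
C1s: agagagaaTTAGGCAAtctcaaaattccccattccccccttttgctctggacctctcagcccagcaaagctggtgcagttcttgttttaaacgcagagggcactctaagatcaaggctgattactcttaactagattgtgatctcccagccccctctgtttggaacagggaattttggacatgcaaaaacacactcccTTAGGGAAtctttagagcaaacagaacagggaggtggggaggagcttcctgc
C3: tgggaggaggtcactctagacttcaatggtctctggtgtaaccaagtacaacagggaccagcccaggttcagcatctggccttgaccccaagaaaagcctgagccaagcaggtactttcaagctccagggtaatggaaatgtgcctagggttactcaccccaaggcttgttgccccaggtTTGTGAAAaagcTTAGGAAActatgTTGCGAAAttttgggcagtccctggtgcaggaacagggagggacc

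The C1qb window held 1 match to GAGGAA, at 30 to 25 bases before the start. The C1qc window held 1 match to GAGGAA on the opposite strand, at 193 to 188 bases, and 1 to TTNNGNAA. Those of C1s and C3 held 2 and 3 matches to TTNNGNAA, the latter at 70 to 63, 58 to 51 and 45 to 38 bases before the start. Of 27025 promoters of the same length, 23.1% had a match to GAGGAA, 36.9% to TTNNGNAA, 7.18% to TTCNNNGAA and 3.04% to the ISRE, and 2.66% had 3 or more matches to TTNNGNAA. A match in letters is not a measured site. No match to TTCNNNGAA or the ISRE was found in these 4 windows, and the fifth promoter, that of Cd55, had no match to any of the 4 motifs.

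C1q, the recognition unit, was lower in Rnf40-/- MEFs in each of its 3 chains. In Rnf40+/+ libraries the counts of C1qa were 386, 395 and 1211, and in Rnf40-/- libraries 144, 139.8 and 189.8. Its log2 fold change was -1.86 (SE 0.34, limma adjusted p = 0.000793). C1qc went along, at 379, 426 and 902 against 160.1, 118 and 186, a log2 fold change of -1.78 (SE 0.27, limma adjusted p = 0.000209). C1qb had 377, 367 and 1140.4 normalized counts against 172, 218 and 273, and its log2 fold change of -1.31 (SE 0.34, limma adjusted p = 0.00768) was the smallest of the 3. In all 3 genes the highest Rnf40-/- library was below the lowest Rnf40+/+ library, but Rnf40+/+ replicate 3 was more than double the next library. Without it the log2 fold changes were -1.31 for C1qa, -0.77 for C1qb and -1.40 for C1qc (limma adjusted p = 6.91e-06, 0.00132 and 1.48e-05). The fall was therefore smaller, with a narrower spread, when that library was left out.

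The shares of the chains in the summed counts varied between libraries. C1qb made up 33.1%, 30.9% and 35.1% of the summed counts of the 3 genes in Rnf40+/+ and 36.2%, 45.8% and 42.1% in Rnf40-/- libraries, without overlap, whereas C1qa went from 33.8%, 33.2% and 37.2% to 30.2%, 29.4% and 29.3%. The share of C1qc overlapped between the genotypes. The nearest C1qb shares of the 2 genotypes, 35.1% and 36.2%, lay close together. These shares are of counts not divided by length, and their difference was not tested.

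Since C1q is a macrophage product, markers of that cell type were set beside it. Among 21 macrophage markers, all but Aif1 had enough reads to be tested, and 4 were called higher and 10 lower in Rnf40-/- MEFs, with a median log2 fold change of -0.75. Among all genes tested 23.3% were called higher and 24.1% lower. The share of higher markers was thus near the background, and that of lower markers, 10 of 20 tested, was above it. The summed level of the 21 markers was 7222, 7950.1 and 12685 normalized counts in Rnf40+/+ and 5376, 4779 and 5414 in Rnf40-/- libraries. Lyz2, the gene of lysozyme, was the largest contributor in every library. Without Lyz2 the sums were 3277, 3393 and 5245 against 3058, 2686 and 3031. Rnf40+/+ replicates 1 and 2 then lay close to the Rnf40-/- libraries, and only replicate 3 stood far above them. None of the 4 defining markers was absent, and they did not move as one. Csf1r, the receptor of the macrophage growth factor, had 356, 307 and 449.6 normalized counts against 308, 324 and 319 (log2 fold change -0.21, limma adjusted p = 0.212). Emr1, the gene of the surface protein F4/80, had 259, 259 and 279 against 299.8, 296 and 287 (log2 fold change 0.15, limma adjusted p = 0.249). Ptprc, the gene of the pan-leukocyte protein CD45, rose from 46.6, 65.3 and 75.9 to 155, 171 and 155 (log2 fold change 1.37, limma adjusted p = 0.00012). Fcgr1, an Fc receptor, fell from 23.9, 12.2 and 30.3 to 5.10, 7.31 and 6.61 (log2 fold change -1.58, limma adjusted p = 0.0106). Macrophage genes were thus present in every library, and calls were made in both directions, more of them lower than higher. In bulk RNA, fewer cells of a type and less RNA per cell cannot be told apart.

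**Figure D2:**
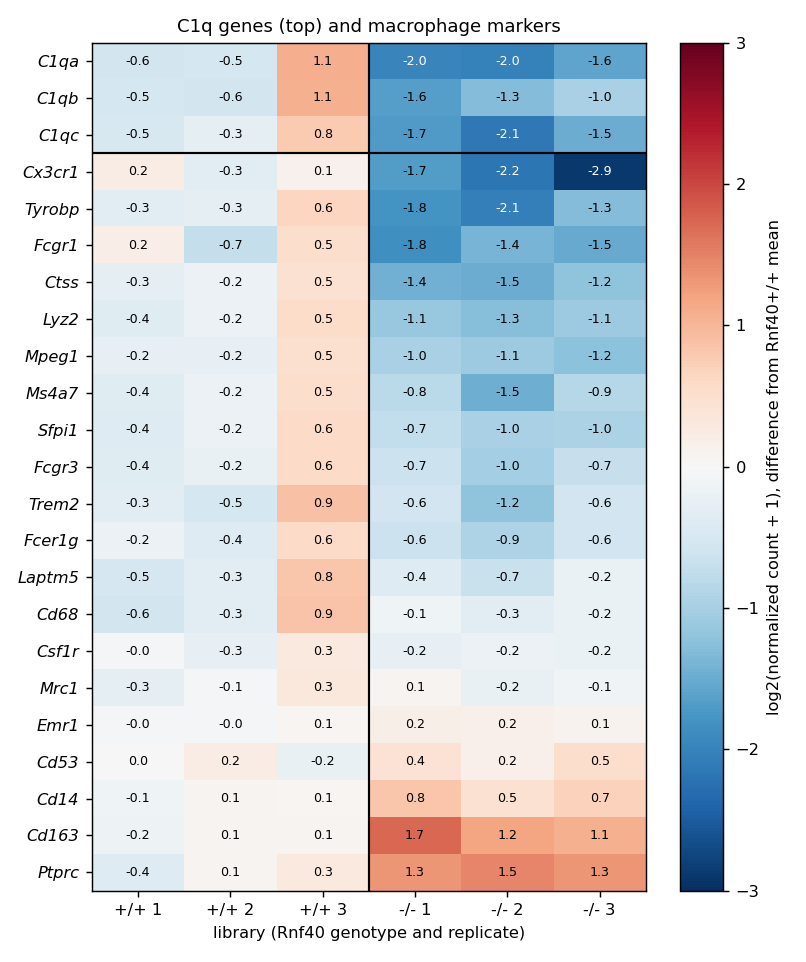
Each row is a gene and each column a library, and the number and color give log2(normalized count + 1) less the mean of the Rnf40+/+ libraries for that gene. The C1q genes (top) and markers such as Tyrobp and Ctss are low in all 3 Rnf40-/- libraries, Csf1r and Emr1 differ little, Ptprc and Cd163 are high, and Rnf40+/+ replicate 3 is above the other Rnf40+/+ libraries for most rows.

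Whether C1q was lower relative to macrophage markers depended on the marker. Per 100 counts of the 21 markers, the 3 C1q genes together had 15.8, 14.9 and 25.6 counts in Rnf40+/+ and 8.86, 9.96 and 12 in Rnf40-/- libraries. Per count of Csf1r they had 3.21, 3.87 and 7.23 against 1.55, 1.47 and 2.03, and per count of Emr1 4.41, 4.59 and 11.7 against 1.59, 1.61 and 2.26. The genotypes did not overlap in these 3 ratios. Taken per count of each of the 20 markers tested, C1q was lower in all Rnf40-/- libraries for 14 markers and overlapped between genotypes for the other 6. These 6 were Tyrobp, Ctss, Cx3cr1, Fcgr1, Lyz2 and Mpeg1, all of them called lower themselves. Among the 14, Fcgr3, Fcer1g, Sfpi1 and Ms4a7 were called lower too. Per count of Tyrobp, for example, C1q had 6.59, 6.66 and 9.47 counts in Rnf40+/+ and 7.53, 9.12 and 7.31 in Rnf40-/- libraries. The ratios were chosen after the values were seen and were not tested. The 5 genes whose 6 values were nearest to the mean profile of the C1q genes, by root mean square distance on the log2 scale among 15490 genes, were BC023483 (0.129), Stab1 (0.170), Angptl6 (0.173), Tyrobp (0.195) and Cotl1 (0.214). Tyrobp, a signaling adaptor of myeloid cells, fell from 173, 178 and 343 to 63.2, 52.2 and 88.8 normalized counts (log2 fold change -1.71, and -1.39 without Rnf40+/+ replicate 3). Stab1, a scavenger receptor, fell from a mean of 415 to 124 (log2 fold change -1.67, limma adjusted p = 0.000125, and -1.33 without Rnf40+/+ replicate 3). As Stab1 was picked for its nearness to the C1q profile, its fall follows from that choice. Tyrobp was a listed marker, but it lay near that profile too, so the overlap in its ratio to C1q restates this nearness.

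The protease of C1 moved the other way. C1s had 287, 244 and 384 normalized counts in Rnf40+/+ and 599, 589.7 and 491 in Rnf40-/- libraries. All Rnf40-/- values were above all Rnf40+/+ values, at a log2 fold change of 0.89 (SE 0.15, limma adjusted p = 0.000427). The copy of C1s, listed as Gm5077 (C1s2), shares 24.3% of the 50-base windows of the C1s transcript, so reads can be split between them, and it rose too, by 0.76 on the log2 scale (limma adjusted p = 0.0171). Of the genes for the partner protease C1r, C1ra rose from 409.6, 388 and 438 to 520.03, 546 and 550.5 normalized counts (log2 fold change 0.39, limma adjusted p = 0.00323). C1rb had a log2 fold change of 0.37 that did not pass (limma adjusted p = 0.0755). The annotated spans of C1ra and C1rb overlap on the same strand, and how reads were split between them was not examined. Serping1, whose product inhibits both proteases, had 530.2, 503 and 498 against 638, 619.9 and 604 normalized counts. This was a small rise of 1.22 times the Rnf40+/+ mean (log2 fold change 0.28, SE 0.08, limma adjusted p = 0.0115), and it was not past the threshold without Rnf40-/- replicate 1 (0.26, limma adjusted p = 0.0586).

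C4b, the substrate of C1s, was barely expressed and showed no difference that could be detected. Its normalized counts were 28.7, 18.4 and 18.4 in Rnf40+/+ and 24.5, 21.9 and 20.8 in Rnf40-/- libraries, from 18 to 24 reads each. The log2 fold change was 0.06 with a 95% interval from -0.62 to 0.75 (limma adjusted p = 0.882), which leaves room for changes of over 1.5 times in either direction. C4a, a near copy of C4b, shares 35.2% of the 50-base windows of the C4b transcript, and how reads were split between the pair is uncertain. It had 33.4, 15.3 and 24.0 against 28.6, 18.8 and 33.0 normalized counts (log2 fold change 0.17, limma adjusted p = 0.724). C2, the other substrate, had 20.3, 34.7 and 63.9 against 60.2, 40.7 and 47.2 (log2 fold change 0.44, limma adjusted p = 0.341), with overlap between genotypes.

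C3, the protein at which the pathways meet, rose from a low level. It had 8.36, 16.3 and 25.6 normalized counts in Rnf40+/+ libraries, or 7, 16 and 32 reads, and 136, 116 and 81.2 in Rnf40-/- libraries, or 133, 111 and 86 reads. The lowest Rnf40-/- library was more than 3 times the highest Rnf40+/+ library. The log2 fold change was 2.75 (SE 0.36, limma adjusted p = 6.39e-05), and over the 6 fits that omit 1 library it ranged between 2.35 and 3.10. Cfb, which supplies the protease of the C3-cleaving enzyme, rose with it, from 31.1, 19.4 and 8.78 to 72.4, 55.3 and 52.9 normalized counts. Its log2 fold change of 1.71 (SE 0.39, limma adjusted p = 0.00322) lay between 1.25 and 2.1 with 1 library left out, the lower value without Rnf40+/+ replicate 3. The Rnf40+/+ libraries ranked in opposite order for the 2 genes, with replicate 3 highest for C3 and lowest for Cfb. Liver cells, the main source of C3 and factor B in the body, were sought through 7 hepatocyte markers. Alb, Afp, Ttr, Apoa1 and Fgb had at most 8.35 normalized counts in any library, and 2 markers were tested. Apob rose by 1.48 on the log2 scale (limma adjusted p = 6.89e-05), and Serpina1a had a log2 fold change of -0.48 (limma adjusted p = 0.321). The summed level of the 7 markers was between 63.2 and 87.0 in Rnf40+/+ and between 158 and 183 in Rnf40-/- libraries, most of it from Apob. Nearest to the profile of C3 were Epyc (0.250), Lrp2 (0.289), Astn1 (0.299), Mgat4c (0.307) and Prl3d1 (0.309). Of these only Lrp2 was well above the limit of detection in Rnf40+/+ MEFs, with a mean of 119, whereas the other 4 had means between 3.49 and 6.90, so that their distances rest on few reads.

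Cd55, the membrane inhibitor, differed by less than the spread between libraries. It had 977, 1137 and 951 normalized counts in Rnf40+/+ and 1044, 1141 and 1008 in Rnf40-/- libraries, and the log2 fold change was 0.06 with a 95% interval from -0.13 to 0.25 (limma adjusted p = 0.584). Daf2 (Cd55b), its copy, shares 13.3% of the 50-base windows of the Cd55 transcript and had a log2 fold change of -0.25 (limma adjusted p = 0.381).

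Levels of different genes were compared per kilobase of annotated exon. In Rnf40+/+ MEFs C1qa (638 ± 455 normalized counts per kilobase, SD, n = 3), C1qb (577 ± 408) and C1qc (295 ± 149.8) were on top, followed by Serping1 (219 ± 7.56), Cd55 (211 ± 20.8) and C1s (87.3 ± 20.6), with Cfb (6.99 ± 3.94), C4b (3.83 ± 1.04) and C3 (3.26 ± 1.68) far below. In Rnf40-/- MEFs the order was Serping1 (267 ± 7.33), Cd55 (219 ± 14.1), C1qb (203 ± 46.3), C1s (160.4 ± 17.1), C1qa (152 ± 26.7) and C1qc (80.1 ± 17.8), then C3 (21.6 ± 5.37) and Cfb (21.3 ± 3.77), and C4b last (3.93 ± 0.333). The ranges of the libraries overlapped among C1qa, C1qb and C1qc, among C1qc, Serping1 and Cd55, and among Cfb, C4b and C3 in Rnf40+/+ MEFs, so the order within these groups is not settled. In Rnf40-/- MEFs those of C3 and Cfb overlapped, as did those of Cd55 and C1qb, and those of C1qb, C1s and C1qa. Without Rnf40+/+ replicate 3 the Rnf40+/+ means of C1qa, C1qb and C1qc were 375, 342 and 208. This put the mean of C1qc below those of Serping1 and Cd55, but the libraries still overlapped, so that order is not settled either. Even after its rise C3 thus stayed about an order of magnitude below Serping1 and Cd55 per kilobase.

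**Figure D3:**
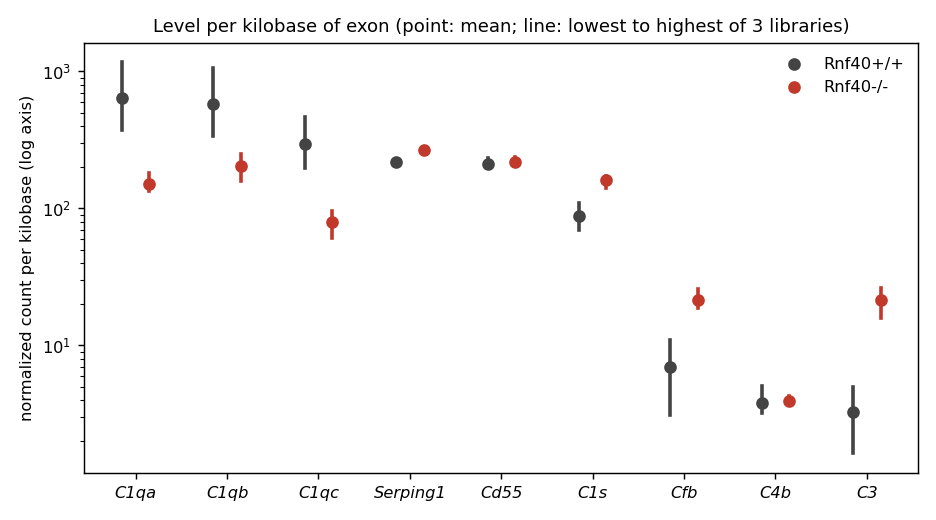
Normalized count per kilobase of exon (log axis) of the 9 genes in Rnf40+/+ (grey) and Rnf40-/- (red) MEFs, with points for means and lines from the lowest to the highest of 3 libraries. The C1q genes head the order at 638, 577 and 295 in Rnf40+/+ MEFs, and Serping1 and Cd55 do so at 267 and 219 in Rnf40-/- MEFs.

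Beyond the 9 genes, a list of 48 further complement genes was examined, of which 47 were in the table, 4 of them had no read in any library and 29 were tested. Of these 29, 10 were called higher and 6 lower, with a median log2 fold change of 0.21, beside 23.3% of all genes tested called higher and 24.1% called lower. The genes listed as soluble regulators were the group with the most rises, 4 of 5 tested and no fall. The gene of this group that was not called, Csmd1, encodes a membrane protein (log2 fold change 1.03, limma adjusted p = 0.0993). Clu, the gene of clusterin, which keeps the membrane attack complex from inserting, rose from 327, 259 and 234 to 837, 742 and 724 normalized counts (log2 fold change 1.5, SE 0.12, limma adjusted p = 1.69e-06). C4bp, which binds cleaved C4, rose from 16.7, 7.14 and 11.2 to 40.8, 37.6 and 63.3 (log2 fold change 1.96, limma adjusted p = 0.000883). Cpn1, a chain of the carboxypeptidase that inactivates anaphylatoxins, had 3, 0 and 1 reads in Rnf40+/+ and 26, 20 and 21 in Rnf40-/- libraries, too few in Rnf40+/+ cells for a reliable fold change (limma adjusted p = 0.000607). Among lectin pathway genes, Colec10, a collectin, rose from 54.9, 72.4 and 53.5 to 181.5, 187 and 166 (log2 fold change 1.56, limma adjusted p = 1.61e-05), and Masp1, its protease partner and one of the most abundant complement genes here, fell by 0.38 (limma adjusted p = 0.0103).

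The membrane regulators and receptors are few, and their counts are read against the 23.3% of all genes called higher and the 24.1% called lower. Of the 5 genes listed as membrane regulators and tested, none was called higher and 2 were lower. Cd59a, an inhibitor of the membrane attack complex, was lower by 0.73 on the log2 scale (limma adjusted p = 4.65e-05) and Cr1l by 0.33 (limma adjusted p = 0.0139). The table holds a separate row, Crry, under an older name of Cr1l, which was 0.54 lower on the same scale (limma adjusted p = 0.00271) and was not counted. Of 7 receptors tested, 1 was called higher and 2 lower. The one that was higher, Cd93, first described as a C1q receptor and expressed by endothelial cells, rose from 69.3, 93.8 and 99.8 to 162, 194 and 204 normalized counts (log2 fold change 1.09, limma adjusted p = 0.0003). Of 5 endothelial markers, Pecam1, Cdh5 and Kdr were also called higher, Emcn was called lower and Tek was not called. In Rnf40+/+ libraries Pecam1 had 4, 4 and 3 reads and Cdh5 had 2, 5 and 1, too few for a reliable fold change. The summed level of the 5 markers was between 138 and 279 in Rnf40+/+ and between 225 and 315 in Rnf40-/- libraries. The highest Rnf40+/+ sum was that of replicate 1, in which Tek had 114.6 normalized counts against 11.2 and 16.0 in replicates 2 and 3. Without replicate 1 the Rnf40+/+ sums were 205 and 138, below those of the Rnf40-/- libraries. That library was left out after its values were seen, and only 2 remained, so no conclusion is drawn from this. The part of such cells in the rise of Cd93 was not tested. C3ar1, the receptor of the C3a peptide on myeloid cells, was among the lower ones (log2 fold change -0.49, limma adjusted p = 0.0257), together with C1qbp. Properdin (Cfp), which stabilizes the alternative C3-cleaving enzyme and is made by myeloid cells, fell from 142, 136 and 260.3 to 94.8, 93.9 and 109.5 normalized counts (log2 fold change -0.78, limma adjusted p = 0.0127), with Rnf40+/+ replicate 3 highest, and without that library its log2 fold change was -0.48 (limma adjusted p = 0.0332). Of the 7 terminal components listed, which build the membrane attack complex, 6 were in the table and none of these had enough reads to be tested.

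**Figure D4:**
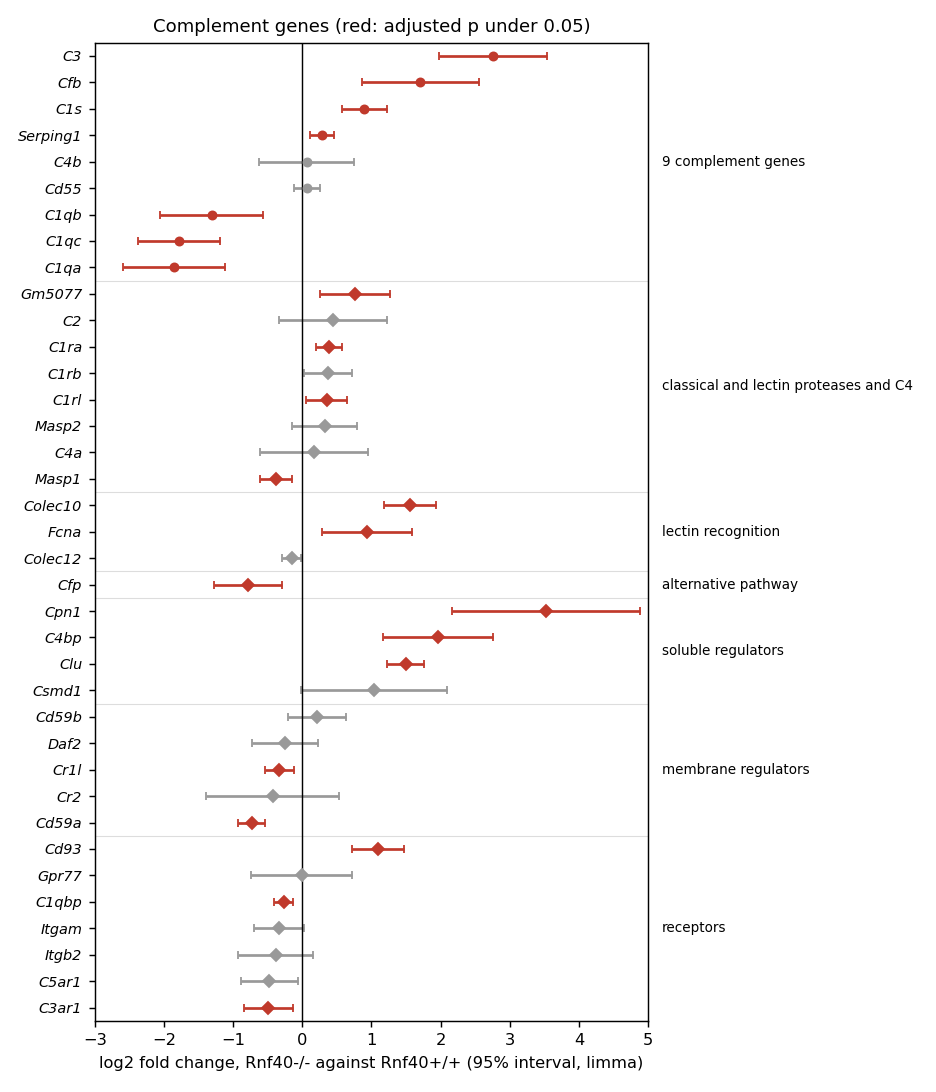
Log2 fold change in Rnf40-/- against Rnf40+/+ MEFs (horizontal axis) with its 95% interval from limma for the 9 genes (circles) and the further complement genes tested (diamonds, all but 1 of the 29), grouped by role. Red marks an adjusted p under 0.05, from 2.75 for C3 to -1.86 for C1qa among the 9 genes. Of the 4 genes shown as soluble regulators, 3 lie above 0 in red.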

How the data were processed

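RNA of 3 Rnf40+/+ and 3 Rnf40-/- MEF cultures was sequenced by a kit that keeps strand. Reads had been aligned by the authors against mm9 transcripts, and each deposited signal value is a read count scaled by a DESeq size factor. The submitters' processing notes name Bowtie2 (version 2.1.0) and DESeq (version 1.14.0). The counting tool is not given in the sources used here. Dividing by the value of a single read gave whole numbers for 100% of values (tolerance 0.01), and these were taken as reads. The labels do not say whether the replicates came from separate embryos, so p values measure the spread between these cultures. No libraries were duplicates, since pairs within a genotype differed by more than sampling noise (chi-square per gene from 5.04 to 26.9).

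On these reads, filterByExpr (edgeR version 4.0.16) removed genes with few of them. Differences were tested with lmFit and eBayes of limma (version 3.58.1, R version 4.3.3) with a trend, genotype as the only term and a pseudocount of 1, which understates the fold change of low genes. Of 3 against 3 libraries, an exact permutation test cannot give a p below 0.1, so none was run. The method was tested on simulated data. Alternatives were pseudocounts of 0.1 and 10, omission of the filter, a minimum of 10 reads per library, TMM scaling, the quasi-likelihood test of edgeR, the Wald test of DESeq2 (version 1.42.0), a replicate block, each library left out, and the longest transcript for levels per kilobase.

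The 9 genes and all lists were chosen with earlier results of these data known. Named genes were the 9 genes, Rnf40, listed complement genes with an adjusted p under 0.05 and a log2 fold change of at least 1 in size, the copies and neighbors C4a, C2, C1ra, C1rb and Cd55b, 4 macrophage markers, and the 5 genes nearest to the profiles of C1q and C3 (mean above 15). The other genes of the lists that are named, Ddx3y and Crry were added after values were seen. The values of 1 listed complement gene are not reported here, though the counts include it. Listed symbols not in the table were matched through synonyms of RefSeq. Of the lists, 2 of 5 epithelial markers were tested and neither was called. The mm9 annotation was GENCODE vM1, and shared windows count exact matches between transcripts.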

Additional observations from a re-analysis of the deposited data

How the results depend on the processing

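The 9 genes kept their direction and their side of the threshold under both pseudocounts, without a filter, with TMM scaling, the quasi-likelihood test of edgeR and the Wald test of DESeq2. At a minimum of 10 reads in every library C3 was not tested, since 1 library had 7 reads, and the other 8 genes kept theirs. In a fit with the replicate number as a block, log2 fold changes cannot change, since each genotype has every replicate number. Only p values can differ there. All 9 genes kept their side of the threshold, and the limma adjusted p of C1qa was 2.37e-07. Whether the numbers pair the libraries is not known. The deviations of same-numbered libraries from their genotype means had correlations from 0.0118 to 0.0212. The other pairs had correlations from -0.0531 to 0.0371, and such small values cannot decide it. Under the block 4021 genes were called higher and 4196 lower, against 3809 and 3955 without it.

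With each library left out in turn, log2 fold changes ranged from -2.14 to -1.31 for C1qa, from -1.59 to -0.77 for C1qb, from -2.02 to -1.40 for C1qc, from 0.75 to 1.07 for C1s, from 2.35 to 3.10 for C3, from 1.25 to 2.1 for Cfb, from 0.011 to 0.14 for Cd55 and from -1.36 to -1.24 for Rnf40. Serping1 ranged from 0.26 to 0.31, C4b from -0.039 to 0.27, and it was -0.039 without Rnf40+/+ replicate 2 and -0.038 without Rnf40+/+ replicate 3. Between 2 and 4 macrophage markers were called higher, and 2 were so without Rnf40-/- replicate 1. Between 8 and 12 were called lower, with 8 without Rnf40-/- replicate 2 and 12 without Rnf40+/+ replicate 1. Of the further complement genes, between 8 and 12 were called higher and between 4 and 8 lower.

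Per kilobase of the longest transcript in place of all exons, the Rnf40+/+ level was 473 for C1qc, 289 for Serping1 and 326 for Cd55, so that Cd55 then stood above Serping1. For C4b and Cfb, with at most 71 reads in a library, the number of reads limits the precision.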
